A study of Bos taurus with 15 samples.

Results

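Matrix proteases and their TIMP inhibitors were followed as 10 genes, MMP2, MMP3, MMP14, ADAMTS1, ADAMTS2, ADAMTS4, ADAMTS5, TIMP1, TIMP2 and TIMP3, in engineered bovine meniscal tissue at day 28. The genes were chosen by name, with earlier results of these data known, and each matched 1 of the 38001 gene rows of the deposited expression table. Of the 10 genes, 8 had enough counts to be tested among 11834 tested genes, while MMP3 and ADAMTS5 did not. Across the 5 groups, TIMP1 and TIMP3 were lower in molded tissue than in tissue grown without a mold, and ADAMTS2 and TIMP2 were lower in the post regions of the molds than in the middle regions.

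The 15 libraries fall into 5 groups of 3: the post region of tissue grown in an anchored mold, the middle region of the anchored mold, the post region of an unanchored mold, the middle region of the unanchored mold, and tissue without a mold. The last group was grown as free blobs of cells in collagen. The labels name the cells bovine meniscal fibrochondrocytes, the resident cells of the knee meniscus, and give neither the animals nor their age. All groups, the no mold tissue included, had 3 days in medium with 10% FBS and then 25 days in chondrogenic medium with 50 µg/ml ascorbic acid, dexamethasone and 10 ng/ml TGF-β3. Nothing in the labels tells if replicates were separate cultures, or if a post and a middle library were cut from 1 tissue, so the p-values measure only the spread between these samples, which may be technical.

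Matrix metalloproteinases (MMPs) and ADAMTS proteases are zinc enzymes that are made as inactive precursors and cut collagens, proteoglycans and other matrix proteins outside the cell. TIMPs are small secreted proteins that block the active site of these enzymes, TIMP3 being the one that stays bound to the matrix and the strongest of them against the aggrecan-cutting ADAMTS proteases. In meniscus and cartilage the balance of these enzymes and inhibitors is best known for its part in the loss of aggrecan and collagen in osteoarthritis, and also in the turnover of newly made matrix.

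Library totals ran from 2060781 to 7415701 counts, and the 3 shallowest libraries were no mold 1, no mold 3 and anchored middle 2. Along the first principal component, with 27.0% of the variance, the no mold libraries stood apart from the molded ones. No mold 1 and 3 lay at -38.8 each, and no mold 2, with 4466562 counts, at -17.8. The molded libraries lay from -2.94, in the shallow anchored middle 2, to 16.7. Depth and growth without a mold thus went together along this axis, and the part of depth in it was not tested. Mitochondrial transcripts took 1.29% to 2.02% of counts in the molded libraries and 1.17% to 1.46% in the no mold libraries, and 1.29% to 1.63% in post against 1.49% to 2.02% in middle libraries. The part of this share in the results was not tested. All 10 fibrochondrocyte markers on a list fixed for the purpose were tested, among them COL1A1 with group means of 8141 to 13856 CPM, the library's counts scaled to a total of 1e+06. None of 6 endothelial, 4 Schwann cell or 4 osteoblast and hypertrophic markers had enough counts to be tested, and 2 of 6 leukocyte markers did. Of 4 mural cell markers, 3 were tested. The 4 summed to 49.9 to 92.1 CPM in anchored post and 72.2 to 88.9 CPM in anchored middle libraries. They summed to 72.6 to 91.3 CPM in unanchored post, 83.9 to 99.9 CPM in unanchored middle and 73.4 to 98.0 CPM in no mold libraries. Levels below are TMM-normalised CPM, which is not divided by gene length, and are compared between groups and not between genes. Ratios and shares formed from several genes are likewise read between groups only. In bulk tissue, fewer cells of a type and less RNA per cell cannot be told apart.

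The first question was whether growth in a mold went with a different level of these genes. Molded tissue had lower TIMP1 and TIMP3 and higher MMP2 than no mold tissue, in a comparison of the mean of the 4 molded groups with the no mold group by edgeR's quasi-likelihood test with Benjamini-Hochberg adjustment over all tested genes. At an adjusted p under 0.05, 3 of the 8 tested members were called, 1 higher and 2 lower, against 16% of all tested genes, 8.04% higher and 7.91% lower. Those genes were 952 higher and 936 lower in molded tissue, and 1329 higher and 677 lower when libraries were scaled by their totals alone, a scaling added after the data were seen. The median log2 fold change was -0.29 over the 8 members and 0.00 over all tested genes.

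TIMP1, a secreted inhibitor of most soluble MMPs, had 2235, 2219 and 2427 CPM in the anchored post libraries, 2069.8, 2263 and 1917 CPM in the anchored middle libraries, 1913, 2204 and 2227 CPM in the unanchored post libraries and 2025, 2059 and 2236 CPM in the unanchored middle libraries, against 2948, 3172 and 3415 CPM in the no mold libraries. Every molded library lay below every no mold library, while the 4 molded groups overlapped one another. TIMP1 fell by 0.57 on the log2 scale in molded tissue (SE 0.082, 95% interval -0.74 to -0.40; edgeR adjusted p = 5.83e-05). With the 3 shallowest libraries left out it fell by 0.58 (edgeR adjusted p = 0.00778), and the call held under each alternative run. Set against no mold tissue group by group, TIMP1 was called lower in each of the 4 molded groups, by 0.47 in anchored post, 0.61 in anchored middle, 0.59 in unanchored post and 0.59 in unanchored middle tissue (edgeR adjusted p = 0.0117, 0.000664, 0.00147 and 0.000796, in that order of groups). These 4 comparisons share the same 3 no mold libraries. The anchored post call was lost without anchored post 1 (edgeR adjusted p = 0.0523), without no mold 3 (0.0756) and without the 3 shallowest libraries (0.120).

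TIMP3, the matrix-bound inhibitor, had 852, 722 and 918 CPM in the anchored post libraries, 892, 712 and 862 CPM in the anchored middle libraries, 887, 899 and 910.0 CPM in the unanchored post libraries and 932, 867 and 970.1 CPM in the unanchored middle libraries, against 1091, 1247 and 1255 CPM in the no mold libraries. Again every no mold library lay above every molded library. TIMP3 fell by 0.47 in molded tissue (SE 0.085, 95% interval -0.64 to -0.29; edgeR adjusted p = 0.000631), and the call held under each alternative run, with a highest adjusted p of 0.0211 without the 3 shallowest libraries. Among all tested genes, 4.29% had molded and no mold libraries that did not overlap with the molded ones lower; of the 8 members these were TIMP1 and TIMP3. By group, TIMP3 fell by 0.53 in anchored post, 0.54 in anchored middle, 0.41 in unanchored post and 0.38 in unanchored middle tissue (edgeR adjusted p = 0.00568, 0.0021, 0.0185 and 0.0233, in that order). The unanchored post call was lost without unanchored post 1 (edgeR adjusted p = 0.081), unanchored post 3 (0.0602), no mold 2 (0.0645), no mold 3 (0.0867) or the 3 shallowest libraries (0.077), and when scaled by library totals (0.0675). The unanchored middle call was lost without unanchored middle 1 (edgeR adjusted p = 0.0616), unanchored middle 2 (0.107), no mold 2 (0.0766), no mold 3 (0.0959) or the 3 shallowest libraries (0.0699), and when scaled by library totals (0.103).

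**Figure D1:**
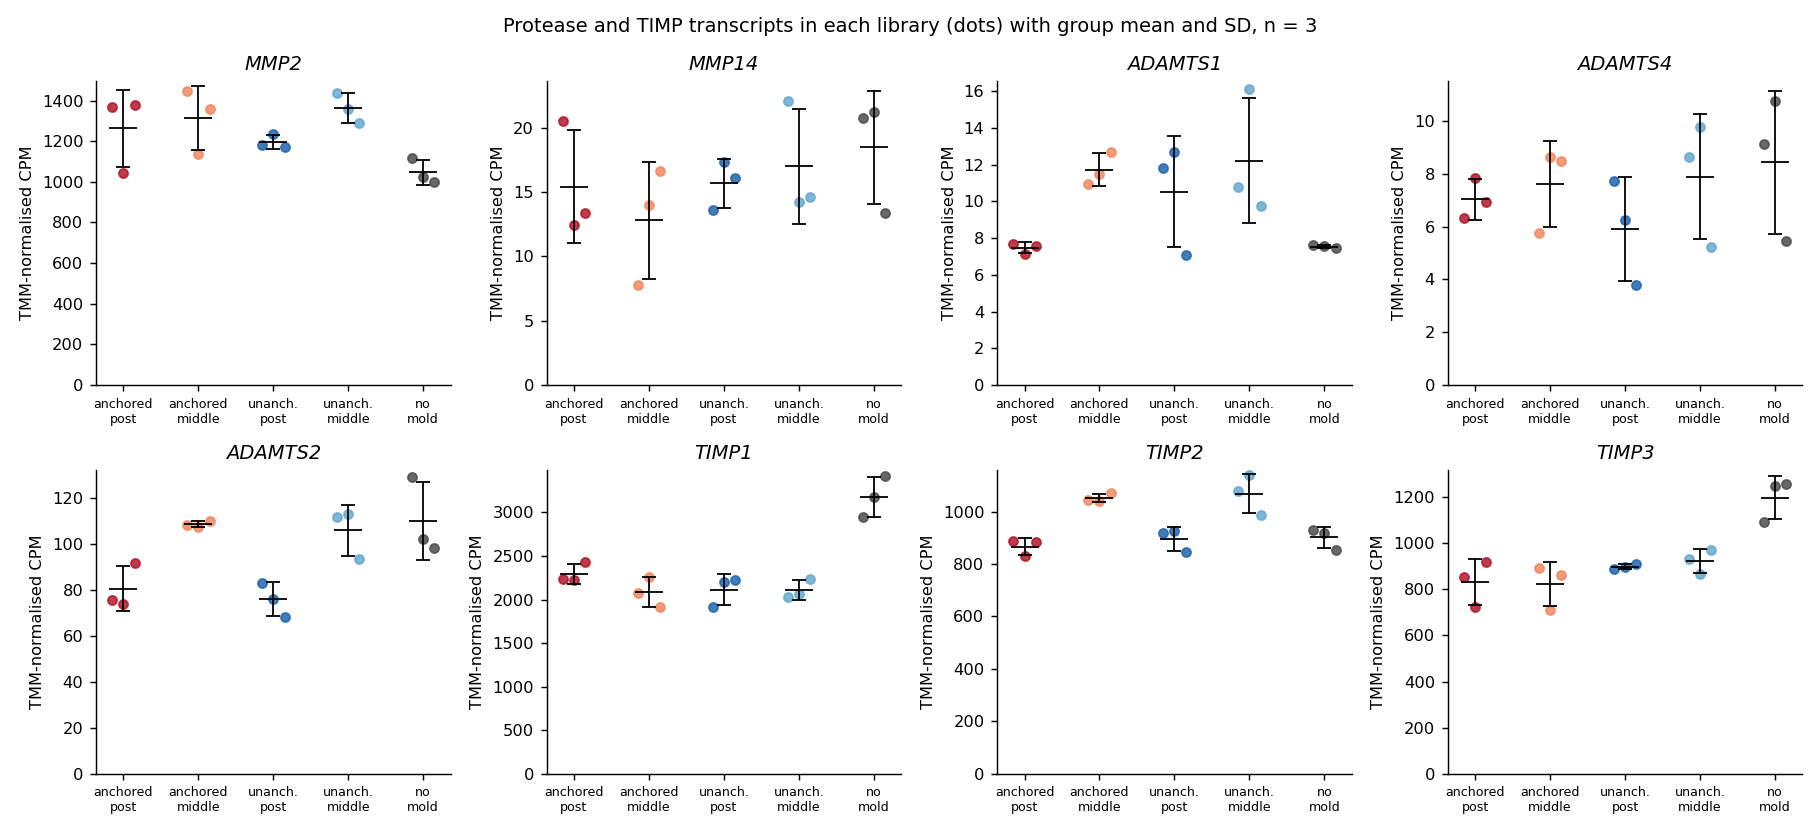
TMM-normalised CPM (y axes, from 0) of the 8 tested members in each library (dots) of the 5 groups (x axes), with the group mean and SD (n = 3). The TIMP1 and TIMP3 dots of the no mold group lie above all 12 molded dots, and the ADAMTS2 and TIMP2 dots of the post groups lie below those of the middle groups.

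MMP2, a secreted gelatinase that cuts denatured collagen and basement membrane collagen, went the other way. It had 1368, 1044 and 1376 CPM in the anchored post libraries, 1446, 1139 and 1357 CPM in the anchored middle libraries, 1181, 1234 and 1171 CPM in the unanchored post libraries and 1439.7, 1359.7 and 1290.3 CPM in the unanchored middle libraries, against 1117, 1026 and 999 CPM in the no mold libraries. 1 molded library, anchored post 2, lay below no mold 1, so that the molded and no mold libraries overlapped. MMP2 rose by 0.29 in molded tissue (SE 0.094, 95% interval 0.10 to 0.49; edgeR adjusted p = 0.0348). The call was lost without anchored post 1 (edgeR adjusted p = 0.0512), unanchored post 2 (0.0509), no mold 1 (0.054), no mold 2 (0.118), no mold 3 (0.17) or the 3 shallowest libraries (0.193). By group, MMP2 was called in unanchored middle tissue, at 0.38 (edgeR adjusted p = 0.0288), and not in anchored post (0.27, adjusted p = 0.181), anchored middle (0.33, adjusted p = 0.062) or unanchored post tissue (0.19, adjusted p = 0.332). The anchored middle difference passed without anchored middle 2 (edgeR adjusted p = 0.0118) or anchored post 2 (0.032). It also passed with no filter (0.0142), when scaled by library totals (0.0448) and with DESeq2 (0.0265). The unanchored middle call was lost without unanchored middle 1 (edgeR adjusted p = 0.102), unanchored middle 2 (0.0715), no mold 2 (0.0772), no mold 3 (0.118) or the 3 shallowest libraries (0.142).

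Group by group against no mold tissue, 3 of the 8 members were called in anchored post tissue (all genes 5.56%), 2 in anchored middle tissue (13.3%), 3 in unanchored post tissue (9.02%) and 3 in unanchored middle tissue (14.8%). TIMP1 and TIMP3 were in all of these counts, ADAMTS2 in those of the post groups and MMP2 in that of the unanchored middle group. TIMP2 was not called in anchored or unanchored middle tissue (0.22 and 0.25, edgeR adjusted p = 0.124 and 0.0831). DESeq2 called it in both (adjusted p = 0.0219 and 0.00828). ADAMTS1 differed there by 0.64 and 0.70 (edgeR adjusted p = 0.0919 and 0.0562), passing in 1 and 6 of 21 alternatives. MMP14 differed by -0.60 in anchored middle tissue (edgeR adjusted p = 0.144).

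The counts of inhibitors and proteases were also set against each other within each library, where scaling between libraries cancels. The ratio of TIMP1 to MMP2 counts was 1.41 to 2.12 in the 12 molded libraries (mean 1.69 ± 0.234, SD) and 2.64 to 3.42 in the 3 no mold libraries (mean 3.05 ± 0.392, SD), with no overlap. TIMP3 to MMP2 was 0.617 to 0.777 in molded and 0.976 to 1.26 in no mold libraries. The sum of the 3 TIMPs over the sum of the 7 proteases was 2.53 to 3.29 in molded and 3.86 to 4.90 in no mold libraries, again without overlap. These ratios were formed after the levels had been seen and carry no test. They are ratios of 3′-end counts of transcripts and not of protein or of enzyme activity.

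**Figure D2:**
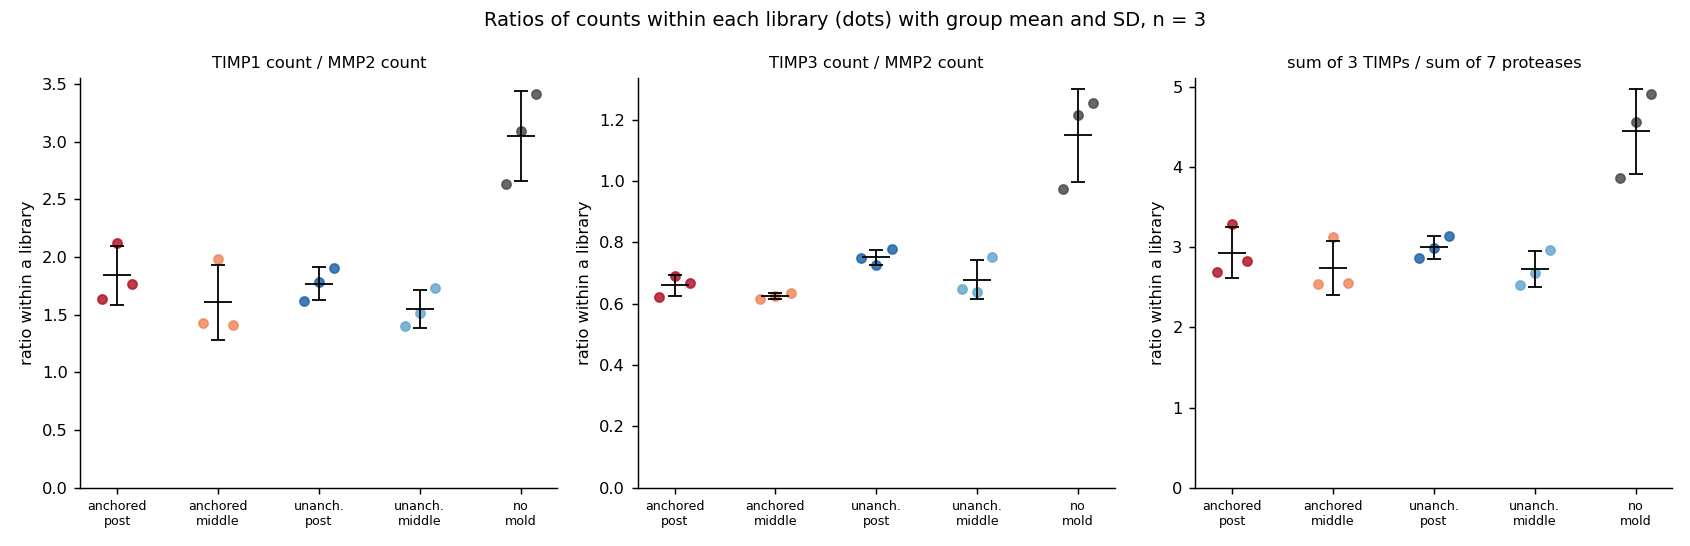
Ratios of counts within each library (y axes, from 0) for TIMP1 over MMP2, TIMP3 over MMP2 and the 3 TIMPs over the 7 proteases, by group (x axes), with dots for libraries and bars for group mean and SD (n = 3). All no mold dots lie above all molded dots in each panel, at 2.64 to 3.42 against 1.41 to 2.12 for TIMP1 over MMP2.

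The make-up of each class shifted with this. MMP2 took 88.8% to 92.4% of the counts of the 7 proteases in molded libraries and 86.9% to 88.7% in no mold libraries. Within the TIMPs, TIMP1 took 49.8% to 58.9% of counts in molded and 59.3% to 61.8% in no mold libraries, and TIMP2 took 20.9% to 28.0% in molded and 15.5% to 18.7% in no mold libraries. The 2 groups of libraries did not overlap in any of these shares.

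Of the 10 fibrochondrocyte markers, 5 were called lower and 0 higher in molded tissue, among them SOX9 and COL2A1. The shares over all tested genes were 7.91% lower and 8.04% higher. The 10 markers summed to 20702 to 30417 CPM in no mold libraries. Their sum was 18486 to 24639 CPM in anchored post and 16585 to 22533 CPM in unanchored post libraries. It was 29897 to 33070 CPM in anchored middle and 22183 to 34109 CPM in unanchored middle libraries. Some markers of other cell types moved in the same comparison. Of the 4 listed adipocyte markers, 3 had a gene row and these 3 were tested. FABP4 was called higher in molded tissue, with group means of 366, 434, 350.0 and 375 CPM in anchored post, anchored middle, unanchored post and unanchored middle tissue and 254 CPM in no mold tissue, while LPL was called lower. The summed level of the 3 markers was 312 to 528, 405 to 616, 354 to 402 and 385 to 472 CPM in the same 4 molded groups and 287 to 323 CPM in no mold tissue. Of 5 skeletal muscle markers 1, DES, was tested and called lower in molded tissue, the 5 summing to 7.67 to 14.4, 5.60 to 7.74, 8.65 to 11.7 and 9.07 to 9.47 CPM in those molded groups and 11.4 to 18.2 CPM in no mold tissue. CKM, a defining muscle enzyme, had 5 counts over all 15 libraries. Their part in the TIMP and MMP2 results was not tested.

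The other members were not called in the mean of the molded groups. MMP14, the membrane-anchored MMP that activates the MMP2 precursor with TIMP2 as its bridge, averaged 15.4 ± 4.42, 12.8 ± 4.57, 15.7 ± 1.90 and 16.99 ± 4.44 CPM in anchored post, anchored middle, unanchored post and unanchored middle tissue and 18.5 ± 4.401 CPM in no mold tissue (SD, n = 3 each). Its groups all overlapped, and the molded minus no mold difference was -0.34 (95% interval -0.78 to 0.11; edgeR adjusted p = 0.315), or -0.18 without no mold 2 (edgeR adjusted p = 0.762). ADAMTS4, an aggrecanase, had 3.80 to 9.78 CPM in the molded libraries and 5.46 to 10.7 CPM in the no mold libraries, a difference of -0.34 (95% interval -0.84 to 0.16; edgeR adjusted p = 0.370). It was -0.04 without no mold 2, -0.53 without no mold 3 and -0.62 without the 3 shallowest libraries, none of them called (edgeR adjusted p = 0.956, 0.234 and 0.329). The replicates of MMP14 and ADAMTS4 spread the most of the 8 members, with a coefficient of variation within groups of 25.7% and 27.1%. For comparison, it was 7.14% for TIMP1 and 4.81% for TIMP2.

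The second question was whether tissue from the post regions of the molds differs from tissue of the middle regions. In the mean of both mold types, 2 of the 8 members were called lower in post than in middle regions, ADAMTS2 and TIMP2, and 0 were called higher, against 8.51% of all genes called, 5.19% lower and 3.32% higher. The median log2 fold change was -0.18 over the members and -0.01 over all tested genes.

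ADAMTS2, the protease that removes the amino-terminal propeptide from fibrillar procollagens, had 75.7, 74.0 and 91.7 CPM in anchored post and 108.2, 107.4 and 109.8 CPM in anchored middle libraries. It had 83.03, 76.1 and 68.3 CPM in unanchored post and 111.5, 113.0 and 93.1 CPM in unanchored middle libraries. All 6 post libraries lay below all 6 middle libraries, and the no mold libraries, at 129.1, 101.9 and 98.2 CPM, overlapped the middle but not the post libraries. ADAMTS2 fell by 0.45 in post regions (SE 0.080, 95% interval -0.62 to -0.29; edgeR adjusted p = 0.00102), and the call held under each alternative run. Within each mold type alone, with 3 libraries against 3, the test did not pass: the difference was -0.43 in anchored (edgeR adjusted p = 0.0513) and -0.48 in unanchored molds (edgeR adjusted p = 0.0541). The anchored difference passed without unanchored middle 3 (edgeR adjusted p = 0.041) or no mold 1 (0.0378), with no filter (0.0152) and with DESeq2 (0.0295). The unanchored one passed without anchored post 2 (edgeR adjusted p = 0.0381), anchored middle 1 (0.048), anchored middle 2 (0.0258), unanchored middle 3 (0.0197) no mold 1 (0.0448) or the 3 shallowest libraries (0.0246), with no filter (0.00409) and with DESeq2 (0.014). Against no mold tissue, ADAMTS2 fell by 0.44 in anchored post (edgeR adjusted p = 0.0305) and by 0.53 in unanchored post tissue (edgeR adjusted p = 0.00718), and it was not called in the mean of the molded groups (-0.25, edgeR adjusted p = 0.0721; 0.0427 without anchored post 3). That mean difference was -0.12 without no mold 1, the highest no mold library (edgeR adjusted p = 0.512), and -0.15 without the 3 shallowest libraries (0.633). The anchored post call was lost without anchored post 1 (edgeR adjusted p = 0.109), anchored post 2 (0.0991), no mold 1 (0.2) or the 3 shallowest libraries (0.376), and when scaled by library totals (0.0818). The unanchored post call was lost without no mold 1 (edgeR adjusted p = 0.0681) or the 3 shallowest libraries (0.169).

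TIMP2, which both inhibits MMPs and takes part in the activation of MMP2 at the cell surface, had 887, 830.0 and 882 CPM in anchored post and 1042, 1042 and 1071 CPM in anchored middle libraries. It had 917, 925 and 844 CPM in unanchored post and 1079, 1138 and 989 CPM in unanchored middle libraries. Every post library lay below every middle library, and the no mold libraries, at 931, 918 and 854 CPM, lay among or just above the post libraries and below the middle ones. TIMP2 fell by 0.27 in post regions (SE 0.067, 95% interval -0.40 to -0.13; edgeR adjusted p = 0.0144). The call was lost without unanchored post 3 (edgeR adjusted p = 0.0513) or unanchored middle 2 (0.0619). The difference was -0.28 within anchored molds (edgeR adjusted p = 0.144) and -0.26 within unanchored molds (edgeR adjusted p = 0.228), called by DESeq2 in both (adjusted p = 0.00921 and 0.0267). Among all tested genes, 2.3% had post libraries wholly below middle libraries over both mold types, and of the 8 members these were ADAMTS2 and TIMP2.

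**Figure D3:**
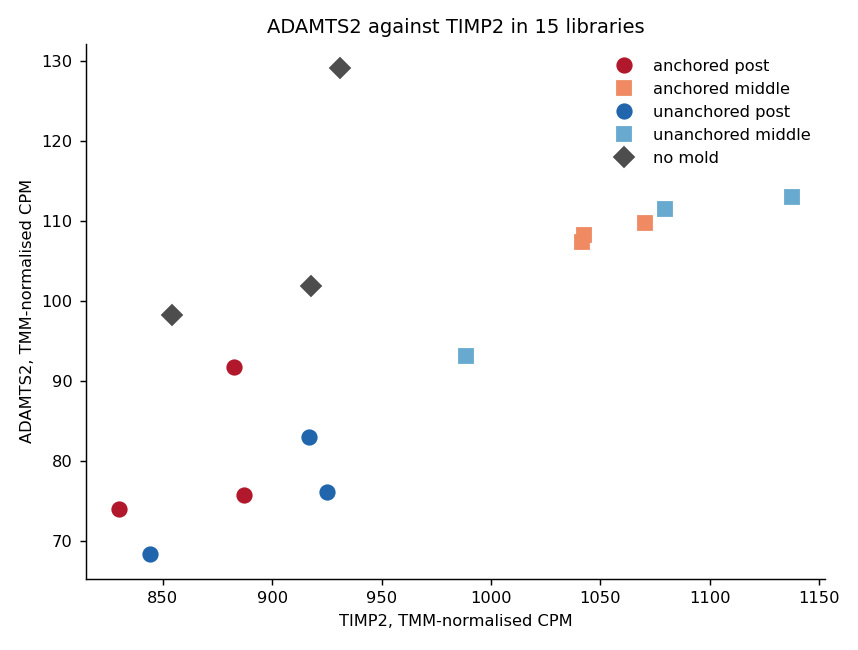
ADAMTS2 (y axis) against TIMP2 (x axis), both in TMM-normalised CPM, with 1 point for each of the 15 libraries and a colour for each group. The 6 post libraries lie at low values of both genes and the 6 middle libraries at high values of both, while the no mold libraries have ADAMTS2 of 98.2 to 129.1 CPM with TIMP2 of 854 to 931 CPM.

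Across the 12 molded libraries ADAMTS2 and TIMP2 had a Pearson r of 0.93, and across all 15 libraries one of 0.69. The points share the region split that both genes followed, and the 3 no mold libraries combined a high ADAMTS2 with a low TIMP2. TIMP1 and TIMP3, which shared the split between molded and no mold tissue, had an r of 0.77 over 15 libraries and -0.14 over the 12 molded ones. These coefficients are descriptions and carry no test.

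ADAMTS1, a protease that cuts versican and, less efficiently, aggrecan, had 7.69, 7.12 and 7.59 CPM in anchored post, 10.9, 11.5 and 12.7 CPM in anchored middle, 11.8, 12.7 and 7.09 CPM in unanchored post and 10.8, 16.1 and 9.77 CPM in unanchored middle libraries, against 7.59, 7.54 and 7.44 CPM in no mold libraries. The anchored post and no mold libraries overlapped, all 6 of them between 7.12 and 7.69 CPM, and the anchored middle libraries lay above them. The level rests on 15 to 102 counts a library. In the test of any difference among the 5 groups ADAMTS1 was called (edgeR adjusted p = 0.0486), but this call was lost in 13 of the alternatives. These were each of anchored post 1, 2 and 3 left out (edgeR adjusted p = 0.0864, 0.0871 and 0.0933), anchored middle 3 (0.0822), unanchored post 1 (0.0609), unanchored middle 1 and 2 (0.053 and 0.0826), no mold 1, 2 and 3 (0.0861, 0.0885 and 0.0996) and the 3 shallowest libraries (0.158), as well as RLE scaling (0.051) and DESeq2 (0.0728). It was not called between post and middle (-0.43, edgeR adjusted p = 0.0604), though it passed without unanchored post 2 (0.0432) or unanchored middle 3 (0.0299) and with no filter on low counts (0.0224). Nor was it called between the molded groups and no mold tissue (0.45, 95% interval 0.00 to 0.90; edgeR adjusted p = 0.169). Within molds the post minus middle difference was -0.65 in anchored (edgeR adjusted p = 0.121) and -0.22 in unanchored molds (edgeR adjusted p = 0.654), and the difference between these 2 was not called (-0.43, edgeR adjusted p = 1.00).

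The other members showed no call by region. MMP2 had a post minus middle difference of -0.12 (95% interval -0.29 to 0.04; edgeR adjusted p = 0.379), TIMP1 one of 0.07 (95% interval -0.09 to 0.23; edgeR adjusted p = 0.616) and ADAMTS4 one of -0.24 (95% interval -0.62 to 0.13; edgeR adjusted p = 0.448). For MMP14 the post libraries had a median of 14.9 CPM and the middle libraries one of 14.4 CPM, and for TIMP3 the medians were 893 and 880 CPM in post and middle libraries.

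Within anchored molds alone 0 of 8 members were called between post and middle by edgeR, against 1.92% of all genes. At an unadjusted p under 0.05 there were 3 members, and 1654 of all 11834 tested genes. DESeq2 called 2 members, and 269 genes over the whole table. Within unanchored molds alone 0 were called by edgeR, against 0.448% of all genes. At an unadjusted p under 0.05 there were 2 members, and 1648 of all tested genes. DESeq2 called 2 members, and 125 genes over the whole table. The fibrochondrocyte markers, several of them matrix genes, also moved with region, 7 of 10 being called lower and 0 higher in post regions. The shares over all tested genes were 5.19% lower and 3.32% higher. Their summed level was 18486 to 24639 CPM in anchored post against 29897 to 33070 CPM in anchored middle libraries, and 16585 to 22533 CPM in unanchored post against 22183 to 34109 CPM in unanchored middle libraries. The adipocyte marker LPL was called lower in post regions, with means of 18.7 CPM in anchored post against 43.0 CPM in anchored middle, and 23.4 CPM in unanchored post against 39.0 CPM in unanchored middle tissue. Their part in the ADAMTS2 and TIMP2 results was not tested.

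**Figure D4:**
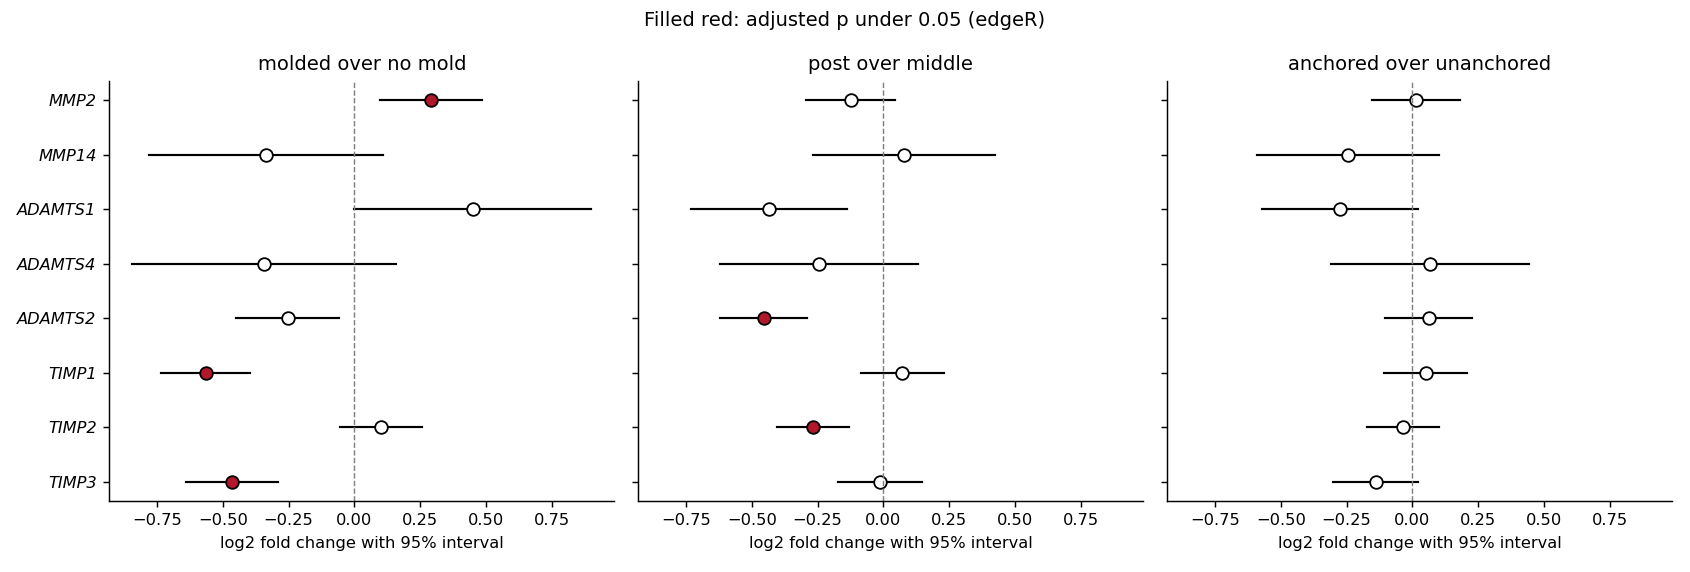
Log2 fold change (x axes) of the 8 tested members for molded over no mold, post over middle and anchored over unanchored tissue, with 95% intervals as bars and filled red points for an edgeR adjusted p under 0.05. TIMP1 (-0.57), TIMP3 (-0.47) and MMP2 (0.29) are filled on the left, ADAMTS2 (-0.45) and TIMP2 (-0.27) in the middle panel, and no member on the right.

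The third question was whether anchoring the mold's posts changed these genes. No member was called between anchored and unanchored molds: 0 of 8 in the mean of both regions, 0 in the post region, 0 in the middle region and 0 for the difference of the anchoring effect between regions, by edgeR and by DESeq2 alike. Of all tested genes edgeR called 0% in each of these 4 tests, and at an unadjusted p under 0.05 it listed 648, 454, 366 and 223 genes, with 0, 1, 0 and 0 members among them. In the mean of both regions the widest differences were those of ADAMTS1 at -0.27 (95% interval -0.57 to 0.02; edgeR adjusted p = 0.911), MMP14 at -0.25 (95% interval -0.59 to 0.10; edgeR adjusted p = 0.936) and TIMP3 at -0.14 (95% interval -0.30 to 0.02; edgeR adjusted p = 0.916). The member at an unadjusted p under 0.05 was ADAMTS1 in the post region, at -0.49 (95% interval -0.93 to -0.05; edgeR adjusted p = 1.00), and MMP14 differed by -0.45 in the middle region (95% interval -0.95 to 0.04; edgeR adjusted p = 1.00). The difference of the anchoring effect between regions was -0.43 for ADAMTS1 (95% interval -1.02 to 0.16) and 0.42 for MMP14 (95% interval -0.27 to 1.11; edgeR adjusted p = 1.00 for each). For MMP2 and TIMP1 the 95% intervals of the mean ran from -0.15 to 0.18 and from -0.11 to 0.21. A missed threshold does not show that anchored and unanchored tissue had equal levels.

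Taking the 5 groups at once, 4 of the 8 members were called in the test of any difference, against 12.7% of all genes: TIMP1 (edgeR adjusted p = 0.000918), ADAMTS2 (0.00302), TIMP3 (0.00605) and ADAMTS1 (0.0486). The TIMP3 call was lost without no mold 3 (edgeR adjusted p = 0.0585) or the 3 shallowest libraries (0.0703). TIMP2 (0.0523), MMP2 (0.132), MMP14 (0.442) and ADAMTS4 (0.554) were not called. TIMP2 passed without anchored middle 2 (edgeR adjusted p = 0.0341) or unanchored middle 3 (0.0416), when scaled by library totals (0.0319) and with DESeq2 (5.43e-05). MMP2 passed without anchored post 2 (edgeR adjusted p = 0.0433) or anchored middle 2 (0.0347), with no filter (0.0196) and with DESeq2 (0.0417).

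In order of group means, TIMP1 was lowest in anchored middle tissue at 2083 ± 173 CPM, followed by unanchored middle at 2107 ± 113, unanchored post at 2115 ± 175, anchored post at 2294 ± 116 and no mold tissue at 3178 ± 234 CPM (SD, n = 3 each). The last step in this order was the only one between neighbours whose libraries did not overlap. TIMP3 had the same break, between 923 ± 52.2 CPM in unanchored middle and 1197 ± 92.5 CPM in no mold tissue, and was lowest in anchored middle tissue at 822 ± 96.6 CPM. TIMP2 was lowest in anchored post tissue at 867 ± 31.7 CPM, and its break lay between the middle groups, at 1052 ± 16.5 CPM in anchored and 1069 ± 75.1 CPM in unanchored molds, and the next lower group, no mold tissue, at 901 ± 41.3 CPM. ADAMTS2 was lowest in unanchored post tissue at 75.8 ± 7.36 CPM, and broke between anchored post tissue at 80.5 ± 9.80 CPM and unanchored middle tissue at 105.9 ± 11.1 CPM.

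MMP3 and ADAMTS5 were barely seen. MMP3, stromelysin-1, which cuts proteoglycans and activates other MMPs, had 42.5 counts over the 15 libraries, between 0 and 5.5 in each, and the count was not whole in 9 libraries. ADAMTS5, the other major aggrecanase, had 67 counts in all, with 7, 3 and 5 in anchored post, 8, 6 and 4 in anchored middle, 4, 1 and 3 in unanchored post and 6, 4 and 6 in unanchored middle libraries, against 4, 4 and 2 in no mold libraries. Every group held overlapping counts for ADAMTS5. With no filter on low counts neither gene was called in any comparison. The molded minus no mold difference was then -0.92 for MMP3 (edgeR adjusted p = 0.504) and -0.59 for ADAMTS5 (edgeR adjusted p = 0.670), so that no difference was detectable at this depth.

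Some deposited values are not whole counts, and the sources do not say how fractions were assigned. The deposited counts of TIMP2 were not whole in 9 libraries, of TIMP1 in 7, of TIMP3 in 5, of MMP2 and ADAMTS4 in 2 and of MMP14 in 1, and those of ADAMTS1, ADAMTS2 and ADAMTS5 were whole in all 15. In the RefSeq annotation TIMP1 overlaps SYN1, TIMP3 overlaps SYN3 and MMP14 overlaps RBM23, which held 137, 8 and 315 counts over all libraries, and TIMP2 overlaps CEP295NL, a symbol with 0 rows in the table. Whether the counting used strand is not given, so reads of such overlapping pairs may be hard to tell apart.

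For each member called among the 5 groups, the 3 genes with the most similar log2 CPM over the 15 libraries were listed, out of 10492 tested genes with a symbol. For TIMP1 they were HRAS, PCBP2 and ERCC1 (Pearson r = 0.96, 0.95 and 0.94). For TIMP3 they were VASN, YIF1A and PCK2 (r = 0.93 for each). For ADAMTS2 they were CFAP126, ZNF532 and MFAP4 (r = 0.94, 0.93 and 0.91), and for ADAMTS1 ZBED6, DIO2 and SLC29A3 (r = 0.85, 0.84 and 0.84).

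Lists of other protease, inhibitor and substrate genes were counted in the same fits. Beside them, 8.04% of all tested genes were called higher and 7.91% lower in molded tissue. Between regions, 3.32% were called higher and 5.19% lower in post regions. Of 8 tested inhibitors and clearance receptors, 2 were called lower and 0 higher in molded than in no mold tissue: CST6, a cystatin that inhibits cysteine proteases (-0.84, edgeR adjusted p = 4.48e-05), and TIMP4, the remaining TIMP (-0.82, edgeR adjusted p = 0.0199). TIMP4 averaged 4.98 ± 0.236, 11.0 ± 2.67, 4.93 ± 1.83 and 7.18 ± 2.62 CPM in anchored post, anchored middle, unanchored post and unanchored middle tissue and 12.2 ± 3.20 CPM in no mold tissue (SD, n = 3 each). It was also called lower in post than in middle regions (-0.82, edgeR adjusted p = 0.0095), as was LRP1, an endocytic receptor that clears proteases and TIMPs (-0.38, edgeR adjusted p = 0.013). CST3, another cystatin, was called higher in unanchored middle than in no mold tissue (0.44, edgeR adjusted p = 0.0109) and in neither of the 2 pooled comparisons. The TIMP4 call against no mold tissue was lost without no mold 1 (edgeR adjusted p = 0.0984), no mold 3 (0.159) or the 3 shallowest libraries (0.543), and its region call without unanchored middle 2 (0.051).

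Of 4 tested other MMPs, MMP28 was called lower in molded tissue (-0.34, edgeR adjusted p = 0.0125), which was lost without no mold 2 (edgeR adjusted p = 0.0772), no mold 3 (0.0598) or the 3 shallowest libraries (0.164), with no filter (0.0526) and when scaled by library totals (0.0587), and 0 were called between regions. MMP13, the main collagenase of cartilage, had 1 count over all libraries. Of 4 tested other ADAMTS genes 0 were called between molded and no mold tissue, and ADAMTS6 was called lower in post regions (-0.63, edgeR adjusted p = 0.0483), a call lost in 13 of 21 alternatives with an adjusted p of up to 0.138. Of 4 tested ADAMTS-like proteins, which lack a protease domain, ADAMTSL4 was called lower in post regions (-0.89, edgeR adjusted p = 1.82e-05) and 0 between molded and no mold tissue. The shares of all tested genes called lower were 7.91% in molded tissue and 5.19% in post regions.

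Of 6 tested ADAM proteases, ADAM9 was called higher in molded tissue (0.63, edgeR adjusted p = 0.00101), a call lost without the 3 shallowest libraries (0.155), and ADAM33 was called lower in post regions (-0.999, edgeR adjusted p = 0.0174), a call lost without anchored middle 3 (0.0568), unanchored post 3 (0.05003) or unanchored middle 2 (0.0902). Of 11 tested cathepsins, 4 were called higher and 0 lower in molded tissue, CTSB, CTSS, CTSK and CTSA, and 3 higher and 0 lower in post regions, CTSC, CTSV and CTSK. The shares of all tested genes called higher were 8.04% in molded tissue and 3.32% in post regions. Those called lower were 7.91% and 5.19%. The CTSS call was lost in 6 of 21 alternatives (edgeR adjusted p up to 0.289) and the CTSV call in 14 (up to 0.132). CTSB, a lysosomal cysteine protease, averaged 870.1 ± 128, 898 ± 220.5, 937 ± 84.9 and 1032 ± 68.4 CPM in anchored post, anchored middle, unanchored post and unanchored middle tissue and 658 ± 64.5 CPM in no mold tissue (SD, n = 3 each; 0.51, edgeR adjusted p = 0.0047). CTSK, a collagen-degrading cathepsin, rose by 0.45 in molded tissue (edgeR adjusted p = 0.0093) and by 0.38 in post regions (edgeR adjusted p = 0.02). The CTSK calls were lost without no mold 3 (edgeR adjusted p = 0.0519) or the 3 shallowest libraries (0.0846) for the mold, and without unanchored post 3 (0.0646) or unanchored middle 2 (0.0761) for the region.

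In the plasminogen system, 1 of 5 tested genes, the urokinase receptor gene PLAUR, was called lower in molded tissue (-0.45, edgeR adjusted p = 0.000703) and 0 by region. Among all tested genes, 8.04% were called higher and 7.91% lower in molded tissue, and 8.51% were called by region. SERPINE2, an inhibitor of thrombin and of plasminogen activators, was called lower in unanchored middle than in no mold tissue (-0.72, edgeR adjusted p = 0.0323), a call lost in 7 of 21 alternatives (up to 0.127). Of 3 tested genes of procollagen processing, BMP1, the procollagen C-proteinase (-0.30, edgeR adjusted p = 0.0377), and PCOLCE2, its enhancer (-0.27, edgeR adjusted p = 0.0343), were called lower in molded tissue, and 0 were called by region. The BMP1 call was lost in 9 of 21 alternatives (edgeR adjusted p up to 0.196) and the PCOLCE2 call in 10 (up to 0.643), among them scaling by library totals (0.153 and 0.106). Of 7 tested matrix serine proteases and proprotein convertases, 3 were called higher in molded tissue, among them PRSS35 (1.16, edgeR adjusted p = 0.00829) and FAP, a fibroblast membrane protease (0.34, edgeR adjusted p = 0.0184), and 2 lower. The lower ones were PRSS23 (-0.44, edgeR adjusted p = 0.000567) and FURIN, which activates MMP14 and ADAMTS precursors (-0.39, edgeR adjusted p = 0.00415). All 4 calls were lost without the 3 shallowest libraries (edgeR adjusted p = 0.144, 0.217, 0.123 and 0.163, in that order), that of PRSS35 also without no mold 2 (0.0674) and that of FAP without no mold 2 (0.0509) or no mold 3 (0.148). By region 0 were called.

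The substrates of these enzymes were counted as well. Of 12 tested genes of proteoglycans, collagens and other matrix proteins, 9 were called lower and 0 higher in post than in middle regions. Among them were COMP (-1.43, edgeR adjusted p = 0.000121), HAPLN1, the link protein of aggrecan (-0.59, edgeR adjusted p = 0.000981), ACAN, which encodes aggrecan, and COL1A1. The list shares ACAN, COMP, FMOD, COL1A1, COL1A2 and COL2A1 with the fibrochondrocyte markers, so its counts and theirs are not separate. The shares of all tested genes were 5.19% lower and 3.32% higher in post regions, and 7.91% lower and 8.04% higher in molded tissue. ACAN averaged 87.3 CPM in anchored post against 192 CPM in anchored middle tissue, and 79.7 CPM in unanchored post against 148 CPM in unanchored middle tissue. Between molded and no mold tissue 1 was called higher, DCN, which encodes decorin (0.85, edgeR adjusted p = 8.34e-07), and 4 lower, among them COL2A1 (-3.24, edgeR adjusted p = 1.59e-08). COL2A1, the main collagen of hyaline cartilage, averaged 66.6, 155, 48.4 and 65.5 CPM in anchored post, anchored middle, unanchored post and unanchored middle tissue and 708 CPM in no mold tissue. The list medians of the log2 fold change between molded and no mold tissue ran from -0.27 for procollagen processing and for the ADAMTS-like proteins to 0.19 for the cathepsins, against 0.00 over all tested genes. Between post and middle regions they ran from -0.60 for the substrates and -0.58 for the other ADAMTS proteases to 0.06 for the cathepsins, against -0.01 over all tested genes. None of the genes on these 10 lists was called between anchored and unanchored molds.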

How the data were processed

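RNA was sequenced from 15 libraries of oligo-dT primed cDNA with molecular identifiers, per the labels' protocols, so reads lie mainly at 3′ ends. The submitters' processing notes name featureCounts (Subread 2.1.1), STAR 2.7, SAMtools 1.21 and MultiQC 1.33. Not given in the sources used here: build, annotation, strand setting and collapsing of molecular identifiers. Without collapsing, each PCR copy is a separate read. The authors deposited CPM, which equals each count over the library total, and expected counts, of which 13.5% to 16.3% of nonzero values per library are not whole (tolerance 1e-06).

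Expected counts were rounded and the 92 ERCC spike-in rows left out. Genes passing filterByExpr (a count of 10 scaled to library size, total of 15) were scaled by TMM (factors 0.934 to 1.049) and fitted with edgeR 4.0.16 (R 4.3.3, limma 3.58.1), quasi-likelihood, with 1 mean per group over all 15 libraries, and Benjamini-Hochberg adjustment over 11834 genes. There were 13 tests. Intervals are 95% from the model. Alternatives were RLE scaling, DESeq2 1.42.0, no filter, leaving out the 3 shallowest libraries or each library in turn, a replicate block and, added after seeing the data, scaling by library total. On simulated molded against no mold counts (11712 genes, 200 changed) the test recovered 90% of 2-fold and 42% of 1.5-fold changes with 4 false calls. The simulation gave every gene the same dispersion and changed only genes above a set mean count. These rates need not hold for members whose replicates spread more, such as MMP14 and ADAMTS4.

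The 10 members and the gene lists were chosen with earlier results of these data known. All members are named. From each list up to 4 genes past the threshold in any test, with the smallest p of the 5-group test, are named with values; other genes named were chosen after their values were seen. Gene names came from the table. Overlapping genes were looked up in a RefSeq table whose build may differ. No sequences were used.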

Additional observations from a re-analysis of the deposited data

How the results depend on the processing

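Members called, out of 8, stayed within 1.5 times under the alternatives except as follows. Without the 3 shallowest libraries the count against no mold was 1 in place of 3 in anchored post, unanchored post and unanchored middle tissue, and 2 in place of 4 among the 5 groups. In anchored middle tissue 2 became 4 with DESeq2 and 5 with no filter, where 1575 over all genes became 1413 and 1750. Between post and middle 0 became 2 with DESeq2 and 2 with no filter in anchored molds, and 2 with DESeq2, 1 with no filter and 1 without the 3 shallowest libraries in unanchored molds. With 1 library left out in turn, the counts ran from 1 to 3 for anchored post, 2 to 3 for anchored middle, 2 to 3 for unanchored post, 1 to 4 for unanchored middle and 2 to 4 for all molded tissue against no mold, 2 to 6 among the 5 groups, 1 to 3 between regions, and 0 to 1 between regions within anchored and within unanchored molds. Counts between anchored and unanchored molds stayed at 0 for members under each alternative. ADAMTS1 between post and middle in unanchored molds ran from -0.37 to 0.027, reversing without unanchored middle 2, and the cause was not tested.

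Over all genes the count fell without the 3 shallowest libraries, from 1888 to 335 for molded tissue, 658 to 82 for anchored post, 1575 to 411 for anchored middle, 1068 to 170 for unanchored post and 1747 to 421 for unanchored middle against no mold, and from 1508 to 558 among the 5 groups; that setting leaves no mold with 1 library, assumed to vary like the other groups. With no filter it was 479 in place of 227 between regions in anchored molds, 272 in place of 53 in unanchored molds (125 with DESeq2, 148 without the 3 shallowest libraries), and 66, 21, 28 and 3 in place of 0 for anchoring in the mean, post, middle and its difference between regions.

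Replicate numbers were not taken to pair the samples, since the labels give no shared tissue and not every same-numbered pair correlated over 0.1 in its deviations: 6 of 30 did (r from -0.17 to 0.26), with 0.0916, 0.107 and 0.264 for the 3 pairs of unanchored post and middle libraries. As a hint from the data, 9 of 15 libraries correlated best with their own number. With the replicate block ADAMTS2 was called between post and middle in anchored molds (-0.42, edgeR adjusted p = 0.0484), 1 member in place of 0. ADAMTS1 was called between post and middle in the mean of mold types (-0.44, edgeR adjusted p = 0.0467) and between unanchored middle and no mold tissue (0.73, edgeR adjusted p = 0.0402, against 0.70 and 0.0562 without the block). For all genes the block gave 1 in place of 0 between anchored and unanchored molds. ADAMTS1, ADAMTS4 and MMP14 rest on few counts, and the part of counting error in their spread was not tested. MMP3 and ADAMTS5 were too shallow to test.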
